A study of Mus musculus with 12 samples.

Results

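The 35 genes described here were Myc and 34 genes whose products work in the nucleolus on ribosome biogenesis. They were chosen by name, found by their symbols, and read from the counts by their Ensembl identifiers. All 35 were found among the 55414 gene records, and all 35 passed the filter on low counts in every comparison, with no member below 59 counts in any library. RNA came from splenic CD4+ T cells of 18-week-old wild-type male BALB/c mice, purified by negative selection. In the LIP group (ligature-induced periodontitis), ligatures had been tied around the second maxillary molars for 14 days. The CTL group was anesthetized without ligatures. Cells of day 0 were lysed uncultured, and cells of day 2 had been stimulated in culture with IL-2 and antibodies against TCRβ and CD28, so that culture, stimulation and time cannot be told apart. For 4 libraries of day 2 the labels give a different second antibody (anti-CD29 for CTL 93 and LIP 96, anti-CD30 where the number is 97). Each of the 4 groups had 3 libraries, named by the number in their labels. Because nothing states whether cells of several mice were pooled, p-values measure only the spread between these libraries.

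A resting T cell is small and makes few ribosomes, and a stimulated T cell grows before it divides. Myc is a transcription factor that binds DNA as a dimer with Max, often at the E-box, and many genes of ribosome biogenesis are among its known targets. In the nucleolus, RNA polymerase I transcribes the ribosomal RNA precursor. Small nucleolar ribonucleoproteins (snoRNPs) modify it, the small-subunit processome folds and cuts the part that becomes the small (40S) subunit, and other factors assemble the large (60S) subunit.

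The promoters of the members were examined for 4 short motifs in a window from 250 bases before to 50 after the start site, on either strand, in sequences of RefSeq (GRCm38.p6). Entries were found for 29 of the 35 members. Bop1, Fbl, Myc, Npm1, Rrp12 and Rrs1 had none. The E-box CACGTG, the letters that dimers of Myc and Max recognize, lay in the promoters of 8 of the 29 members (27.6%). It lay in those of 8.09% of all 27025 genes in the table and 11.6% of the 10183 genes that were also tested for a change between days. CCGGAAG, an extended form of the ETS motif, lay in 11 of 29 (37.9%), against 9.93% of all genes and 20.3% of tested genes. CCAAT lay in 9 (31.0%, against 41.1% and 43.1%), and TATAAA in 2 (6.90%, against 15.7% and 9.24%). No motif contains another, and any overlap of their matches was not counted. A match of letters is a description and was not tested as a binding site.

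The 8 promoters with an E-box are shown from 100 bases before to 50 after the start site, 5′ to 3′ on the strand of the gene, with the E-box in capitals, because this motif is the one Myc is known to bind. In 7 of them it lay downstream of the start site, within the first 46 bases of the transcript, and in Nop2 it began 60 bases upstream.
Mybbp1a (chr11:72441227-72441376, + strand): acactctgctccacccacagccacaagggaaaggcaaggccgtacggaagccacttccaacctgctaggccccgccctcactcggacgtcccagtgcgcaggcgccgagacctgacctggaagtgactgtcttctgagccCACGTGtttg
Utp4 (chr8:106893540-106893689, + strand): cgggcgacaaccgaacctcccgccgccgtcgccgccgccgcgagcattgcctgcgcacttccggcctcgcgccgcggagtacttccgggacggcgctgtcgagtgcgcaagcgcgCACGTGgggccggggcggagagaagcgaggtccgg
Utp20 (chr10:88826765-88826914, - strand): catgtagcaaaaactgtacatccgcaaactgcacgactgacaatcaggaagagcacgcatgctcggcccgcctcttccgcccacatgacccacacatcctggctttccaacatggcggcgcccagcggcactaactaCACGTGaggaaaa
Wdr43 (chr17:71616115-71616264, + strand): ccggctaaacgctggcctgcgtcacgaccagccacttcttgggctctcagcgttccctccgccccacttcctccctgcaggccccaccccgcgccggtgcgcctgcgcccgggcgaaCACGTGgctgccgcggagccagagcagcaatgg
Tsr1 (chr11:74897980-74898129, + strand): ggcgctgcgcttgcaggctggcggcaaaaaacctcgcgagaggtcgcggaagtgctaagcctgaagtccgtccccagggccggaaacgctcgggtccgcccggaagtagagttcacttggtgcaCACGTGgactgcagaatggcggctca
Ltv1 (chr10:13193088-13193237, - strand): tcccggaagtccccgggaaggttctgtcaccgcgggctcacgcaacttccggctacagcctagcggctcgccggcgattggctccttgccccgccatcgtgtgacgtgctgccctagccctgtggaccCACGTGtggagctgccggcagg
Pes1 (chr11:3963875-3964024, + strand): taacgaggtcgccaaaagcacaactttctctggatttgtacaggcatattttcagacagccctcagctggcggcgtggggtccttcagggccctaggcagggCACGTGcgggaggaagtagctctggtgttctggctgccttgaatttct
Nop2 (chr6:125131783-125131932, + strand): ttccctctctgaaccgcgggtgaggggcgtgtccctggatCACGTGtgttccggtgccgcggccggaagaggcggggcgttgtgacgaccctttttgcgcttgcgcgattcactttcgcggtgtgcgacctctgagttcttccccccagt

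Some members host small nucleolar RNAs (snoRNAs), the guides of snoRNPs, inside their genes. In the annotation of GRCm39, 7 of the 35 members (20%) held 21 snoRNA genes, against 1.31% of 21627 protein-coding genes. The hosts were Nop56 (5 snoRNA genes), Nop58 (4), Ncl, Wdr43 and Gnl3 (3 each), Tsr1 (2) and Dkc1 (1). The snoRNA records held 0 to 3 counts in every library, too few to compare their levels. Why the counts were so low was not tested.

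Levels are given in CPM, the counts of a gene scaled to the library total after TMM normalization over the 12 libraries. Day 0 totals lay between 6249018 and 7845676, and day 2 totals between 8691699 and 12866718. Cd4 stood at 422 to 645 CPM and Cd3e at 448 to 593 in all libraries, against 0.106 to 2.25 for Cd8a and 0 to 3.03 for the macrophage gene Lyz2. Summed by list, CD8 T cell markers reached 13.2 CPM, myeloid markers 13.5 and natural killer cell markers 14.8. Pancreatic acinar markers summed to 24.1 CPM in LIP 93 of day 0 and to at most 10.4 in any other library. A count of 3, the limit that a count of 0 allows for counting error only, equalled 0.233 to 0.480 CPM. The summed level of 6 B cell markers ranged from 96.7 to 127 CPM on day 0, and on day 2 it was 20.8 to 22.6 in CTL 92, CTL 93 and LIP 90 but 61.3 to 67.7 in CTL 97, LIP 96 and LIP 97. On day 2, LIP 90 stood apart over all genes, with a chi-square statistic per gene of 48.3 and 38.6 from LIP 96 and LIP 97, against 11.9 between those and 8.34 to 12.1 among the CTL libraries. The main results of day 2 are therefore also given without LIP 90.

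**Figure D1:**
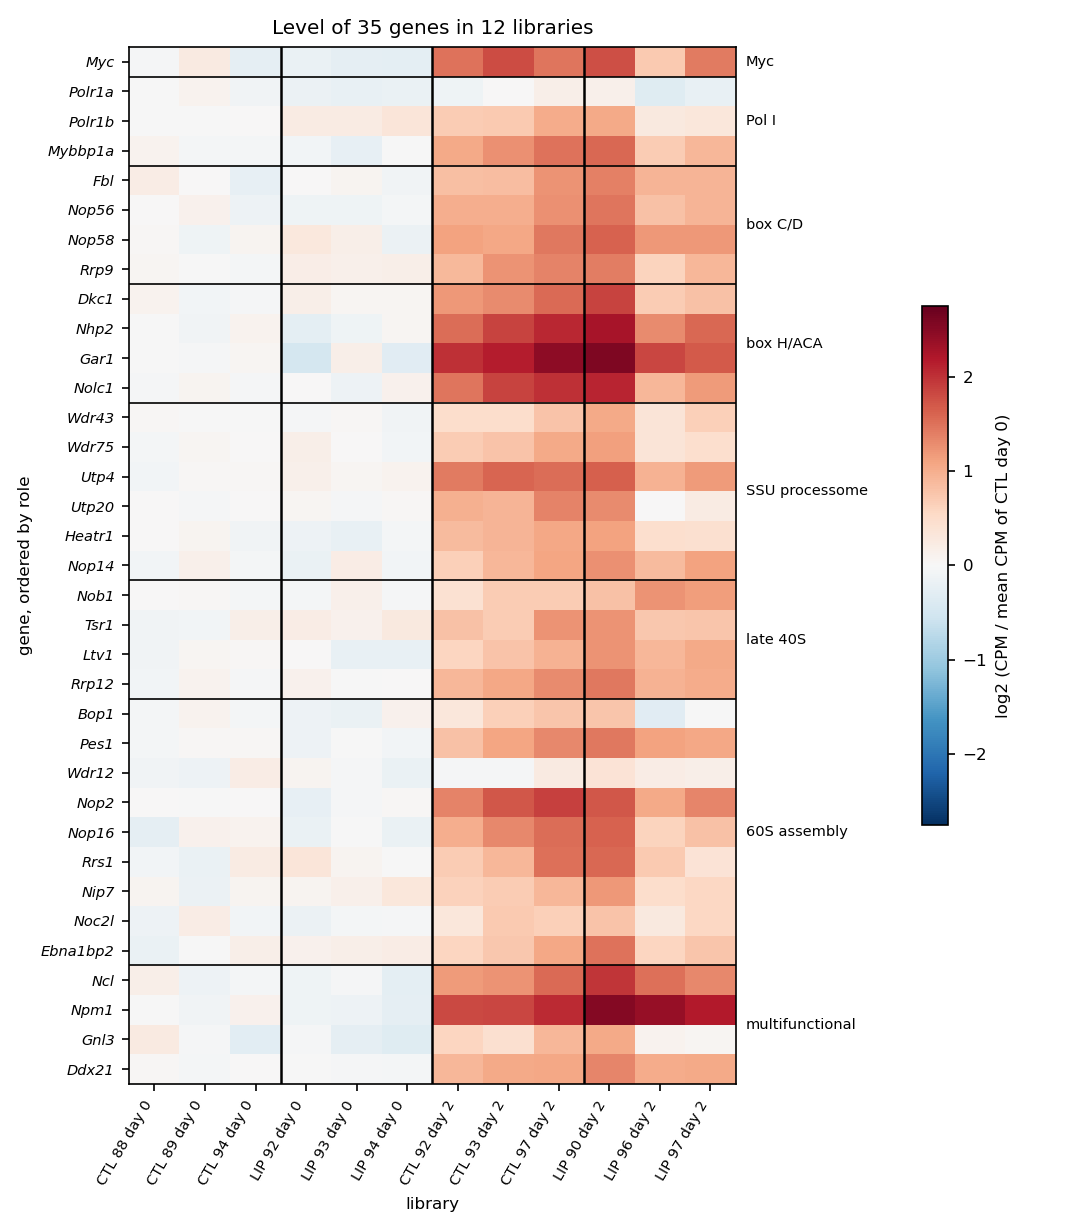
Colour shows the level of each gene in each library as the log2 ratio of its CPM to the mean CPM of the 3 CTL libraries of day 0, with genes in rows by role and libraries in columns, separated by group. Nearly all rows turn red in the 6 libraries of day 2, LIP 90 is the highest day 2 library for 29 genes, and Polr1a and Wdr12 remain pale.

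The first comparison asked how the genes changed between resting and stimulated CTL cells. Of the 35 genes, 33 rose and 0 fell from day 0 to day 2 (adjusted p under 0.05 in the quasi-likelihood test of edgeR, with p adjusted by Benjamini and Hochberg's method over 15475 genes), whereas 35.3% of all genes tested rose. The median log2 fold change of the members was 1.08, against -0.02 over all genes tested. In 33 members every day 2 library lay above every day 0 library, which held for 37.2% of all genes. The exceptions on both counts were Polr1a and Wdr12.

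The same comparison was made in LIP cells. There, 32 members rose and 0 fell, against 36.6% of all genes that rose, with a median log2 fold change of 1.11 against -0.0028 over all genes. The day 2 libraries lay entirely above the day 0 libraries for 31 members, against 37.4% of all genes. Polr1a, Polr1b and Bop1 did not pass the test, and 31 members rose in both groups. Without LIP 90, 28 members passed the test in LIP, all of them among the 32, against 35.6% of all genes. Gnl3, Rrs1, Utp20 and Wdr12 then missed the threshold, and the median was 0.93. Among them, Gnl3 moved from 0.68 to 0.28 on the log2 scale (adjusted p = 0.136, edgeR), Rrs1, a 60S assembly factor, from 0.85 to 0.42 (adjusted p = 0.1), and Wdr12 from 0.29 to 0.23 (adjusted p = 0.124, edgeR). Of the members that still passed, Dkc1, Wdr75, Nip7 and Ebna1bp2 moved by more than 1.5 times, from 1.14 to 0.67, 0.66 to 0.38, 0.62 to 0.36 and 0.84 to 0.53 on the log2 scale. The counts also moved with the scaling, to 29 higher and 1 lower in CTL and 26 and 1 in LIP with upper-quartile normalization, and to 31 and 0 in CTL and 25 and 1 in LIP with total counts alone. All 15475 genes moved the same way, to 4259 higher and 6827 lower in CTL and 4293 and 7084 in LIP with the first, and to 4621 and 6272 in CTL and 4138 and 7285 in LIP with the second. In bulk RNA, a change in the share of cells that express a gene and a change of RNA per cell cannot be told apart.

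**Figure D2:**
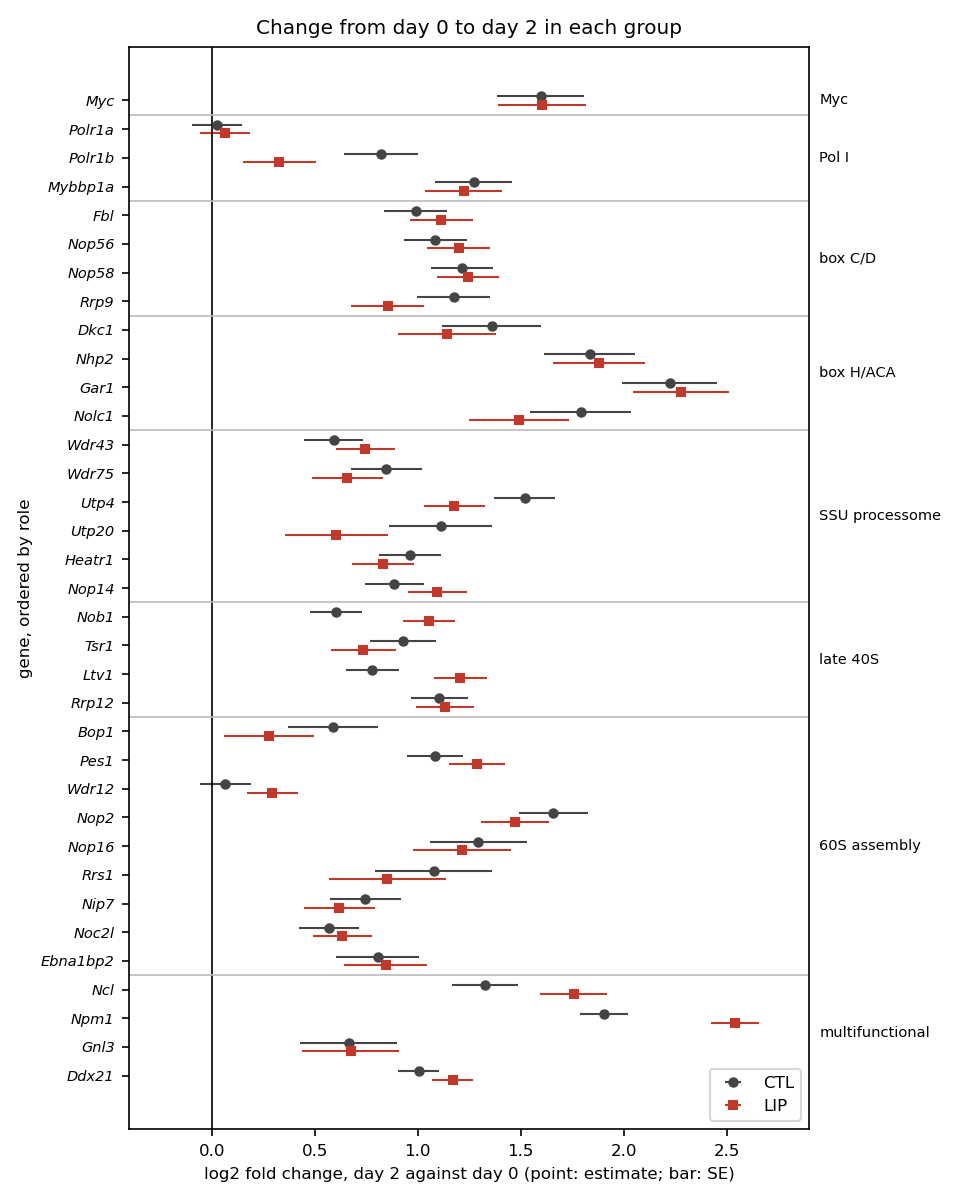
Points give the log2 fold change of day 2 against day 0 for each gene in CTL (circles) and LIP (squares), with bars for the SE, in order of role. Gar1 in CTL (2.22) and Npm1 in LIP (2.54) lie farthest to the right, and Polr1a lies at 0.03 in CTL and 0.06 in LIP.

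Myc (chr15:61857227-61862223, + strand, GRCm39) was counted at 81.2, 99.0 and 70.1 CPM in CTL 88, 89 and 94 of day 0, and at 73.3, 69.8 and 69.1 in LIP 92, 93 and 94. On day 2 it stood at 235, 291 and 233 CPM in CTL 92, 93 and 97, and at 284, 137 and 224 in LIP 90, 96 and 97. All day 2 libraries lay above all day 0 libraries, and LIP 96 was the lowest of day 2. Myc rose 3.03-fold in CTL (log2 fold change 1.60 ± 0.21 SE, n = 3 per day, adjusted p = 1.51e-05) and 3.04-fold in LIP (1.60 ± 0.21, adjusted p = 1.39e-05, edgeR). The difference between the 2 changes was 0.01 ± 0.29 on the log2 scale, with a 95% interval from -0.57 to 0.58, and -0.25 ± 0.24 without LIP 90.

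Genes around Myc were read from lists. Over all 15475 genes tested, 5456 rose and 5220 fell in CTL and 5665 rose and 5446 fell in LIP, against which the counts of each list stand. Of 12 genes that encode partners and antagonists of Myc, 9 were tested, of which 4 rose and 3 fell in CTL and 4 rose and 2 fell in LIP, shares near those of all genes. Max, the dimer partner of Myc, rose by a log2 fold change of 0.61 ± 0.12 in CTL (adjusted p = 0.000584) and 0.36 ± 0.12 in LIP (adjusted p = 0.0175, edgeR). Among the Mxd repressors, which compete with Myc for Max, Mxd3 rose (2.69 ± 0.22 in CTL, 2.79 ± 0.22 in LIP) and Mxd4 fell by 1.97 ± 0.18 in CTL and 2.54 ± 0.18 in LIP on the log2 scale. Of 13 known Myc targets outside the nucleolus, 10 rose and 0 fell in each group, with medians of 2.03 in CTL and 1.90 in LIP. Their highest change was that of Tfrc, the transferrin receptor (4.91 ± 0.48 in CTL, 4.20 ± 0.47 in LIP), and Odc1, the first enzyme of polyamine synthesis, rose by 3.19 ± 0.27 and 3.12 ± 0.27.

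The 3 genes grouped under RNA polymerase I transcription, 2 subunits and Mybbp1a, did not move alike. Polr1a (chr6:71886021-71961919, + strand), the largest subunit of the polymerase, had 165, 177 and 156 CPM on day 0 and 152, 168 and 186 on day 2 in CTL. In LIP it had 148, 144 and 146 CPM on day 0 and 184, 131 and 143 on day 2, so that the days overlapped in both groups. Its log2 fold change was 0.03 ± 0.12 in CTL (adjusted p = 0.852) and 0.06 ± 0.12 in LIP (adjusted p = 0.645, edgeR), and its call depended on the scaling. With upper-quartile normalization Polr1a was the 1 member called lower, at -0.26 in both groups (adjusted p = 0.045 in CTL and 0.0447 in LIP, edgeR), and with total counts alone it was -0.16 in CTL (adjusted p = 0.218) and -0.30 in LIP (adjusted p = 0.0305, edgeR). Polr1b, the second-largest subunit, rose in CTL (0.82 ± 0.18, adjusted p = 0.00104, edgeR). In LIP it was 54.2 CPM in LIP 90 but 31.8 and 32.9 in LIP 96 and 97, near its 30.7, 31.0 and 33.3 on day 0, and the change did not pass the test (0.33 ± 0.18, adjusted p = 0.11, and 0.04 ± 0.12 without LIP 90, edgeR). Mybbp1a, a nucleolar protein that binds Myb, rose in both groups (1.27 ± 0.19 in CTL, 1.22 ± 0.19 in LIP), in LIP from 139.9, 125 and 145 CPM to 438, 239.8 and 277. Among 13 other genes of the polymerase and its factors, 6 rose and 3 fell in CTL, and 8 rose and 2 fell in LIP, in CTL again near the shares of all genes. Taf1d, a subunit of the promoter selectivity factor, rose most (2.33 ± 0.10 and 2.71 ± 0.11), while Taf1a and Taf1c of the same factor fell by 0.91 ± 0.22 and 0.68 ± 0.13 in CTL and by 1.15 ± 0.21 and 0.86 ± 0.13 in LIP, all on the log2 scale.

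All 8 snoRNP members rose in both groups. The 4 box H/ACA genes, whose products turn uridine into pseudouridine or assist in it, had medians of 1.81 in CTL, the highest of the roles with more than 1 member, and 1.69 in LIP (1.31 without LIP 90). Gar1 stood at 11.3, 11.1 and 11.8 CPM on day 0 and 45.8, 51.2 and 63.0 on day 2 in CTL, and at 8.13, 12.7 and 9.22 against 67.4, 40.9 and 36.7 in LIP. The days lay far apart in both groups, with a log2 fold change of 2.22 ± 0.23 in CTL (adjusted p = 1.54e-06) and 2.28 ± 0.23 in LIP (adjusted p = 1.23e-06, edgeR). Nhp2, another core protein, had 17.3, 16.4 and 18.8 CPM against 50.7, 63.2 and 73.7 in CTL, and 14.5, 16.0 and 18.2 against 83.7, 43.3 and 52.2 in LIP. It rose 3.57-fold in CTL (1.84 ± 0.22, adjusted p = 6.17e-06) and 3.68-fold in LIP (1.88 ± 0.22, adjusted p = 4.65e-06, edgeR), again without overlap. Nolc1, a nucleolar chaperone of snoRNPs, had 51.2, 55.0 and 51.4 CPM on day 0 and 145, 191 and 211 on day 2 in CTL, and 52.6, 48.0 and 57.5 against 226, 99.3 and 119 in LIP. It rose 3.46-fold in CTL (1.79 ± 0.24, adjusted p = 2.04e-05) and 2.81-fold in LIP (1.49 ± 0.24, adjusted p = 9.47e-05, edgeR). Dkc1, the pseudouridine synthase, had 54.5, 48.6 and 49.7 CPM against 116, 126 and 150.2 in CTL, and 56.6, 52.8 and 52.8 against 186, 82.9 and 88.9 in LIP. It rose 2.56-fold in CTL (1.36 ± 0.24, adjusted p = 0.000196) and 2.21-fold in LIP (1.14 ± 0.24, adjusted p = 0.000731, edgeR), and 1.60-fold in LIP without LIP 90. In all 4 genes LIP 90 was the highest library of day 2.

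The 4 box C/D genes, whose products methylate ribosomal RNA or take part in its cleavage, rose less, with medians of 1.13 in CTL and 1.16 in LIP. Their log2 fold changes lay between 0.99 (Fbl, the methyltransferase) and 1.22 (Nop58) in CTL and between 0.86 (Rrp9, a protein of the U3 particle) and 1.24 (Nop58) in LIP. Nop58, a core protein of the particle, had 85.8, 78.4 and 63.2 CPM on day 0 and 217, 160.3 and 161 on day 2 in LIP. Of 10 other snoRNP proteins and assembly factors, 9 rose and 0 fell in each group, with medians of 1.18 and 1.35. Naf1, which acts in H/ACA assembly, had the highest value in CTL (1.78 ± 0.16), and Ruvbl1, a helicase of snoRNP assembly, in LIP (1.76 ± 0.25).

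All 10 members of the small-subunit pathway rose in both groups. For the 6 processome genes the medians were 0.93 in CTL and 0.79 in LIP (0.57 without LIP 90, with 5 of 6 past the test). Utp4 stood at 26.8, 28.9 and 28.8 CPM on day 0 and 75.4, 85.8 and 81.4 on day 2 in CTL, and at 30.9, 29.4 and 30.3 against 87.5, 54.4 and 63.1 in LIP. It rose 2.87-fold in CTL (1.52 ± 0.15, adjusted p = 9.25e-07) and 2.26-fold in LIP (1.18 ± 0.15, adjusted p = 8.72e-06, edgeR), with no overlap between days. Utp20 (chr10:88582469-88662699, - strand), a large scaffold protein, had 95.1, 92.3 and 94.9 CPM on day 0 and 187, 181 and 243 on day 2 in CTL. In LIP it had 97.6, 92.2 and 96.2 CPM against 230.0, 94.2 and 110.4, so that LIP 96 on day 2 lay within the day 0 range. The log2 fold change was 1.11 ± 0.25 in CTL (adjusted p = 0.00131) and 0.61 ± 0.25 in LIP (adjusted p = 0.0417), and without LIP 90 it was 0.11 ± 0.12 (adjusted p = 0.447, edgeR). Heatr1, Nop14, Wdr43 and Wdr75 rose by log2 fold changes between 0.59 and 0.96 in CTL and between 0.66 and 1.10 in LIP. The 4 genes of late 40S maturation had medians of 0.85 and 1.09. Of 46 other genes of the same pathway, 30 rose in CTL and 34 in LIP and 0 fell, with medians of 0.54 and 0.55. Noc4l was the highest of them in both groups (2.05 and 1.86).

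Large-subunit assembly factors rose as well, with 8 of 9 members past the test in each group and medians of 0.81 in CTL and 0.84 in LIP. Without LIP 90, 6 of the 9 passed in LIP, with a median of 0.51. Nop2, an RNA methyltransferase also known as a proliferation antigen, was the highest (1.66 ± 0.17 in CTL, 1.47 ± 0.17 in LIP), with 33.6, 33.5 and 33.7 CPM on day 0 and 86.8, 109 and 123 on day 2 in CTL. In LIP it had 28.7, 32.8 and 34.2 CPM against 111, 69.6 and 85.1. Nop16, a nucleolar protein of 60S assembly, had 10.5, 13.7 and 13.4 CPM against 25.0, 31.2 and 36.7 in CTL (1.29 ± 0.24). The 3 proteins of the PeBoW complex, which acts in 60S assembly, did not move alike. Pes1 rose in both groups (1.09 ± 0.14 in CTL, 1.29 ± 0.14 in LIP), in LIP from 43.1, 46.6 and 44.9 CPM to 129, 101 and 99.2. Bop1 rose in CTL (0.59 ± 0.22, adjusted p = 0.0276) but missed the threshold in LIP (0.28 ± 0.22, adjusted p = 0.264, and -0.10 ± 0.15 without LIP 90, edgeR), where it had 43.1, 41.8 and 52.1 CPM on day 0 and 80.4, 38.3 and 47.2 on day 2. Wdr12 stood at 50.6, 49.4 and 62.0 CPM against 52.4, 52.8 and 64.4 in CTL (0.07 ± 0.12, adjusted p = 0.648, edgeR). In LIP it stood at 47.8 to 56.8 CPM against 70.6, 61.9 and 60.6 (0.29 ± 0.12, adjusted p = 0.0472, edgeR), a direction that turned with upper-quartile normalization or without normalization. Of 44 other large-subunit factors, 34 rose and 4 fell in CTL and 33 rose and 5 fell in LIP. Lyar was the highest (2.22 and 2.12), and Ddx31, a helicase, was the lowest (-0.74 and -0.71).

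The 4 nucleolar proteins with several functions rose in both groups. Npm1 (nucleophosmin, chr11:33100281-33113267, - strand), an abundant nucleolar chaperone, had 355, 333 and 389 CPM on day 0 and 1258, 1279 and 1500.0 on day 2 in CTL. In LIP it had 331, 327 and 301 CPM against 2062, 1880.0 and 1640.1. Days did not overlap, and the log2 fold change was 1.91 ± 0.12 in CTL (3.75-fold, adjusted p = 1.03e-08) and 2.54 ± 0.12 in LIP (5.82-fold, adjusted p = 1.25e-09, edgeR). Ncl (nucleolin, chr1:86272441-86287208, - strand), an RNA-binding protein of nucleolar transcription and processing, rose from 475, 385 and 411 CPM to 957, 997 and 1240.2 in CTL. In LIP it rose from 393, 416 and 349.5 CPM to 1653, 1202 and 1061. The log2 fold changes were 1.33 ± 0.16 in CTL (adjusted p = 6.51e-06) and 1.76 ± 0.16 in LIP (adjusted p = 4.49e-07, edgeR), and LIP 90 was the highest library. Ddx21, an RNA helicase, rose 2.01-fold and 2.25-fold, and Gnl3 (nucleostemin), a GTPase, rose 1.59-fold and 1.60-fold, the latter 1.21-fold without LIP 90 and then not past the test.

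Ribosome genes beyond assembly also rose. Of 79 cytosolic ribosomal protein genes, 65 rose and 1 fell in CTL (median 0.76), and 78 rose and 0 fell in LIP (median 1.29). Of 78 mitochondrial ribosomal protein genes, 65 rose and 3 fell in CTL (median 0.97), and 72 rose and 2 fell in LIP (median 1.16). Among 15 tested genes of the RNA exosome and related nucleases, 10 rose and 1 fell in CTL, and 11 rose and 1 fell in LIP. All 13 proliferation genes rose in both groups (medians 3.33 and 3.69), and so did the 5 tested genes of a list on p53 and nucleolar stress (medians 0.89 and 0.72). That list includes Rpl5 and Rpl11, which are also among the 79 cytosolic ribosomal protein genes. The 35 members took a larger sum in every stimulated library, from 2614 to 2867 CPM on day 0 to between 5856 and 8735 CPM on day 2. Npm1 and Ncl together held 24.9% to 28.9% of this sum on day 0, 36.2% to 37.8% in CTL on day 2, and 42.5% to 49.4% in LIP on day 2.

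The next comparison asked whether periodontitis alone was accompanied by other levels in unstimulated cells. On day 0, 0 of the 35 members differed between LIP and CTL by edgeR's adjusted p, against 0.427% of 14064 genes tested, and 0 by DESeq2, against 1.24%. At an unadjusted p under 0.05, 1 member was higher and 1 lower, against 13.9% of all genes in either direction. The groups did not overlap for 6 members, against 19.1% of all genes. The median log2 fold change was -0.03, and all 35 values lay between -0.23 and 0.26.

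Polr1b and Polr1a were the 2 members with the smallest p on day 0. Polr1b was higher in LIP (26.2, 26.4 and 26.8 CPM in CTL against 30.7, 31.0 and 33.3, log2 0.26 ± 0.09, unadjusted p = 0.0171, adjusted p = 0.246, edgeR). Polr1a was 1.13-fold lower (165, 177 and 156 against 148, 144 and 146 CPM, log2 -0.18 ± 0.07, unadjusted p = 0.025, adjusted p = 0.286, edgeR). The libraries of the groups did not overlap for either gene, yet neither passed the adjusted test. For Myc the log2 fold change was -0.23 ± 0.11 (adjusted p = 0.369, edgeR). It passed the test only without CTL 94, the CTL library with the lowest Myc, where it was -0.35 ± 0.09 (adjusted p = 0.0495, edgeR) and the only member called lower, against 2.8% of all genes. Without CTL 89, the CTL library with the highest Myc, it was -0.09 ± 0.09 (adjusted p = 0.693, edgeR), so that its size rested on single CTL libraries. Tsr1, a late 40S factor, had 52.4, 53.3 and 63.4 CPM in CTL and 65.0, 61.1 and 67.5 in LIP (0.20 ± 0.09, adjusted p = 0.371, edgeR). Npm1 had -0.16 ± 0.08 (adjusted p = 0.392, edgeR), with all LIP libraries just below the CTL libraries, and it was -0.10 without CTL 94 and -0.22 without CTL 89. In the lists of other ribosome biogenesis genes, Myc partners and Myc targets named above, 0 genes were called on day 0 at an adjusted p, and the same held on day 2 and for the difference between the groups' changes with all libraries.

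Other lists also moved with group on the same day. Of 9 tested immediate early genes, 3 were lower in LIP and 0 higher, and of 13 tested heat shock genes, 11 were lower and 0 higher. The immediate early list summed to 1517, 1334 and 681 CPM in CTL 88, 89 and 94 and to 670.3, 528 and 537 in LIP. Of 79 cytosolic ribosomal protein genes, 1 (Rps24) was lower in LIP on day 0 and 0 higher at an adjusted p, and 32 were lower and 0 higher at an unadjusted p under 0.05, with a median of -0.19. Heat shock genes summed to between 4242 and 4490 CPM in CTL and between 2170 and 2321 in LIP. CTL 94 thus lay near LIP in the immediate early genes and with CTL in the heat shock genes. Their part in the values of Myc was not tested.

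On day 2, the comparison asked whether stimulated cells of the 2 groups differed. With all 6 libraries, 0 of 35 members passed the adjusted test, as did 0% of 14041 genes, whose smallest adjusted p was 0.0568. At an unadjusted p under 0.05, 2 members were higher and 0 lower, against 16.5% of all genes in either direction, and the groups did not overlap for these same 2 members, against 21.5% of all genes. DESeq2 called 1 member (Npm1), against 3.45% of all genes, and the fit with all 12 libraries called 2 (Npm1 and Nob1), against 5.01%. The median log2 fold change was -0.08, and it was -0.29 without LIP 90 and 0.09 without LIP 96.

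Npm1 and Nob1 were higher in every LIP library than in every CTL library. Npm1 had means of 1346 ± 134 CPM in CTL and 1861 ± 211 in LIP (SD, n = 3), a log2 fold change of 0.46 ± 0.14 (unadjusted p = 0.0116, adjusted p = 0.191, edgeR). Nob1 (chr8:108139118-108151692, - strand), the endonuclease of the last cut of small-subunit ribosomal RNA, had 44.3, 53.1 and 53.1 CPM in CTL and 57.9, 77.5 and 73.7 in LIP. Its log2 fold change was 0.46 ± 0.15 (unadjusted p = 0.0137, adjusted p = 0.198, edgeR). Ltv1, a 40S assembly factor, had 31.2, 35.9 and 40.1 CPM in CTL and 48.9, 39.04 and 43.0 in LIP, with 1 LIP library inside the CTL range (0.28 ± 0.14, adjusted p = 0.367, edgeR). Heatr1, a processome protein, had 249.8, 261 and 286 CPM in CTL and 292, 186 and 184 in LIP (-0.28 ± 0.18, adjusted p = 0.472, edgeR). For Heatr1, as for Utp20 (-0.50 ± 0.31, adjusted p = 0.442) and Myc (-0.25 ± 0.24, adjusted p = 0.648, edgeR), LIP 90 lay above the CTL mean and the other two LIP libraries below it.

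**Figure D3:**
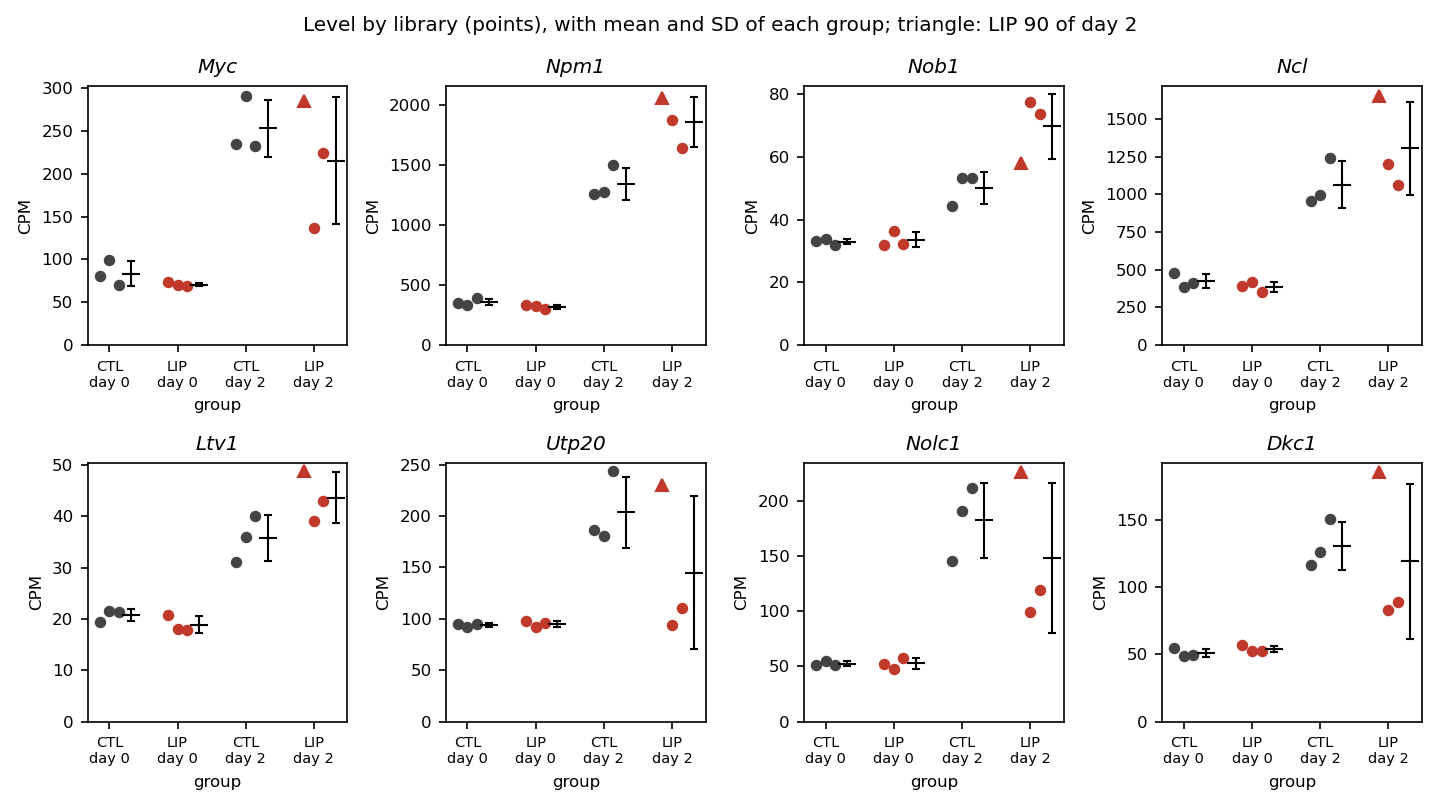
Points give the CPM of 8 genes in each library by group, with the mean and SD (n = 3) beside them and a triangle for LIP 90 of day 2. Npm1 and Nob1 lie higher in all LIP libraries than in all CTL libraries on day 2, whereas for Utp20, Nolc1 and Dkc1 LIP 90 lies near or above the CTL libraries and LIP 96 and LIP 97 lie below them.

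The LIP libraries of day 2 differed among themselves in these genes. LIP 90 was the highest of the 6 libraries for 29 of 35 members, against 21.5% of all genes tested, and lay above every CTL library for 30, against 33.4%. LIP 96 was the lowest for 19 members, against 19.9% of all genes. LIP 96 and LIP 97 both lay below every CTL library for 17 members, against 24.7% of all genes, and above every CTL library for 2, against 23.0%. For 12 members, LIP 90 lay above and the other two below all CTL libraries, a pattern of 6.60% of all genes. The median log2 ratio of the members to the CTL mean of day 2 was 0.33 in LIP 90, -0.37 in LIP 96 and -0.17 in LIP 97, and it was -0.15, -0.03 and 0.19 in CTL 92, 93 and 97.

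Without LIP 90, 8 members were lower in LIP than in CTL on day 2, against 6.19% of all 14453 genes tested, and 1 was higher, against 7.74%. Utp20 was 1.97-fold lower (log2 -0.98 ± 0.15, adjusted p = 0.00397, edgeR). The other 7 were Bop1 (-0.73 ± 0.16), Nolc1 (-0.72 ± 0.16), Dkc1 (-0.59 ± 0.13), Gnl3 (-0.58 ± 0.15), Polr1b (-0.52 ± 0.14), Heatr1 (-0.50 ± 0.11) and Utp4 (-0.45 ± 0.12), with adjusted p from 0.0149 to 0.0426 (edgeR). They came from the polymerase, the H/ACA snoRNPs, the processome, 60S assembly and the multifunctional proteins. In all 8 both LIP 96 and LIP 97, the only LIP libraries left, lay below every CTL library. That order follows largely from the calls themselves and is no separate evidence. Leaving out LIP 96 in place of LIP 90 gave 0 members lower and 0 higher, where 1 and 0 of all 14370 genes were called. Nob1 was 1.52-fold higher (0.61 ± 0.12, adjusted p = 0.012), and Npm1 had 0.40 ± 0.13 (adjusted p = 0.0644, edgeR). Myc had -0.47 ± 0.20 (adjusted p = 0.151), with 137 CPM in LIP 96 but 224 in LIP 97, just under the lowest CTL library at 233.

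**Figure D4:**
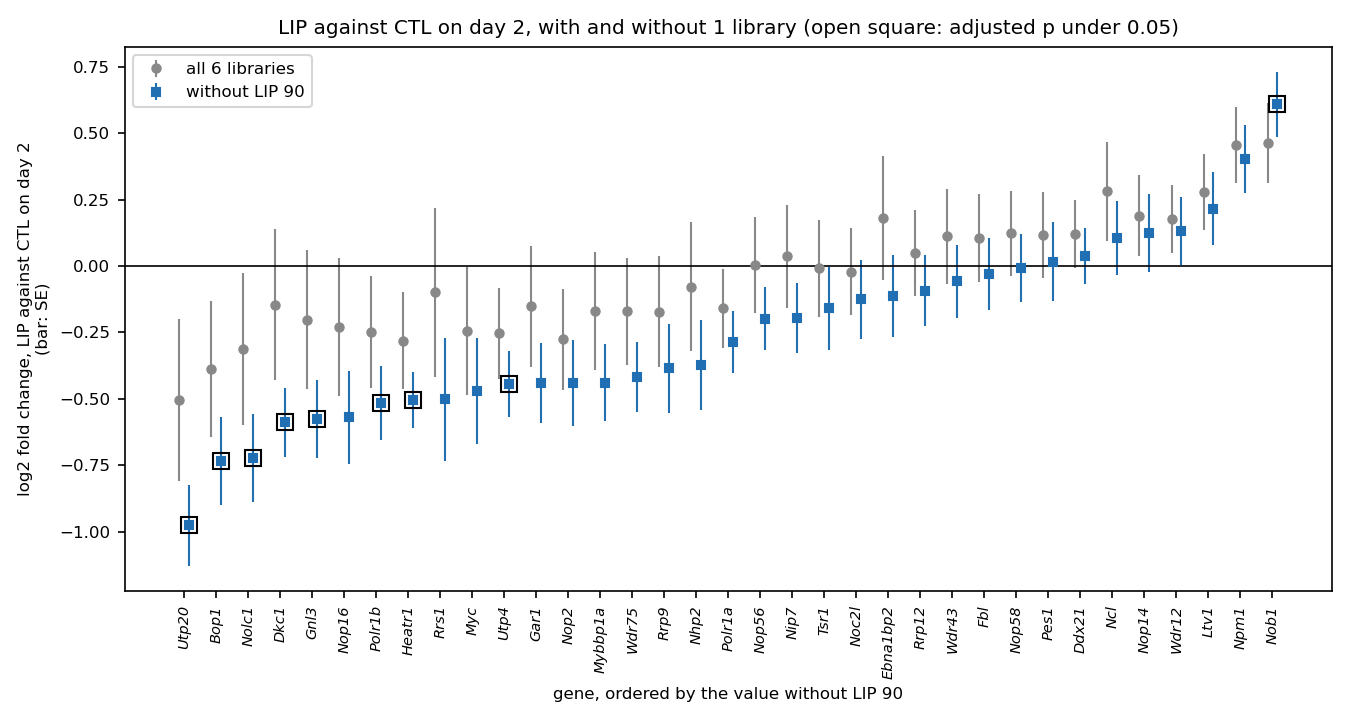
Points give the log2 fold change of LIP against CTL on day 2 with all 6 libraries (circles) and without LIP 90 (squares), with bars for the SE and an open square around values with an adjusted p under 0.05. Most squares lie below their circles, from -0.98 for Utp20 to 0.61 for Nob1, and 9 squares are marked.

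Other lists are given for the same 5 libraries. Of 79 cytosolic ribosomal protein genes, 41 were higher in LIP and 0 lower (median 0.47), and with all 6 libraries 0 passed the test (median 0.36, 38 higher and 0 lower at an unadjusted p under 0.05), a direction opposite to that of day 0. Of 13 Myc targets outside the nucleolus, 0 were higher and 5 lower (median -0.21). The list of 46 other small-subunit genes had 4 higher and 2 lower, that of 44 other large-subunit genes 2 higher and 2 lower, and that of 10 other snoRNP genes 0 higher and 3 lower. Heat shock genes had 1 higher and 5 lower of 14 (median -0.36), immediate early genes 4 higher and 1 lower of 10 (median 0.33), and mitochondrial ribosomal protein genes 8 higher and 1 lower of 78. Of the 13 other polymerase genes, 1 was higher and 1 lower, of the 9 Myc partners 1 was higher and 0 lower, of the 5 genes of p53 and nucleolar stress 1 was higher and 2 lower, and of the 13 proliferation and 15 exosome genes 0 were called in either direction. The sum of ribosomal protein genes on day 2 was 54016 to 62559 CPM in CTL, 65033 in LIP 90, 83814 in LIP 96 and 74837 in LIP 97, and that of Myc targets was 4890 to 5417 CPM in CTL, 6753 in LIP 90, 3248 in LIP 96 and 3511 in LIP 97. LIP 96 and LIP 97 thus lay above the CTL range in the first sum and below it in the second. The B cell markers named above were also higher in both than in LIP 90, and the 2 CD8 T cell markers summed to 13.2 and 9.20 CPM in them, against 4.93 in LIP 90 and 4.43 to 6.33 in CTL. The part of these values in those of the members was not tested.

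The last comparison tested whether the change from day 0 to day 2 differed between LIP and CTL. With all 12 libraries, 0 of 35 members passed the adjusted test, against 0.0517% of 15475 genes. At an unadjusted p under 0.05, 3 members changed more in LIP and 0 less, against 15.9% of all genes in either direction. With total counts alone, which shifted the median difference of all genes to -0.17, 1 member changed more and 2 less at that threshold (599 and 2329 of all genes), and the members' median was -0.15. Npm1 had the smallest p (difference of the log2 fold changes 0.64 ± 0.16, unadjusted p = 0.00134, adjusted p = 0.0983, edgeR), followed by Nob1 (0.45 ± 0.18, adjusted p = 0.23) and Ltv1 (0.43 ± 0.18, adjusted p = 0.272, edgeR). DESeq2 called Npm1 alone among the members, against 3.05% of all genes, and so did edgeR without the filter on low counts, against 2.89%. Ncl had a difference of 0.43 ± 0.22 (adjusted p = 0.379, and 0.22 ± 0.17 without LIP 90), and Polr1b of -0.49 ± 0.25 (adjusted p = 0.366, edgeR).

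Without LIP 90, the changes of 6 members were smaller in LIP, against 4.45% of all genes, and those of 2 were larger, against 5.64%. The smaller ones were Utp20 (-1.01 ± 0.16, adjusted p = 0.00164, edgeR), Polr1b (-0.79 ± 0.16), Nolc1 (-0.74 ± 0.19), Dkc1 (-0.69 ± 0.15), Bop1 (-0.69 ± 0.20) and Utp4 (-0.56 ± 0.14), all 6 of them among the 8 that were lower on day 2. Nob1 (0.57 ± 0.15, adjusted p = 0.026) and Npm1 (0.56 ± 0.14, adjusted p = 0.0255, edgeR) changed more in LIP. This comparison shares its libraries with the preceding ones, so that it is no separate evidence. Utp20 in LIP 96 and LIP 97 had 94.2 and 110.4 CPM after stimulation, against 92.2 to 97.6 before it, while Npm1 in the same 2 libraries had 1880.0 and 1640.1 CPM against 301 to 331.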

How the data were processed

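Libraries were assigned to groups and named by their titles. The authors trimmed 150-bp paired-end reads of rRNA-depleted directional libraries. The deposited values are expected counts, which RSEM 1.3.0 (with Bowtie2) had assigned to the genes of GRCm39, and they carry no normalization. The annotation release is not given in the sources used here. They also deposited tables for each day with gene symbols, normalized levels, fold changes and p-values. From these only the symbols were used, and 2 columns of levels that match no labelled sample were left out. RSEM divides reads among near-identical copies, and 1 pseudogene carries the name of Fbl. Pseudogenes under other names were not searched.

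Values were rounded to integers (73267 were not whole). Genes were kept by filterByExpr, libraries scaled by TMM, and each contrast tested by quasi-likelihood (edgeR 4.0.16, R 4.3.3). Benjamini-Hochberg adjustment ran over all genes tested, with a threshold of 0.05. Changes between days and their difference came from 1 fit of 12 libraries, and LIP against CTL from the 6 libraries of each day. The SE is the absolute log2 fold change divided by the square root of F. Intervals are 1.96 SE on either side, a normal approximation narrower than the F test would give. The test was checked on simulated data. Gene positions are from GENCODE M39 (GRCm39). Alternatives were other normalizations and filters, DESeq2 1.42.0, other sets of libraries and leaving out each library. Python 3.11.15 with pandas and matplotlib made the tables and figures.

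Any of the 35 members could be named. Values by library are given for Myc and, in each comparison, for the members past the threshold with the largest changes (up to 10) or otherwise the 5 with the smallest p. From each list, the highest and lowest gene could be named, and in short lists any gene past the threshold. Bop1, Wdr12, Utp20 in LIP and the libraries of the sums were chosen after their values were seen. The members, roles, lists and tests were chosen with earlier results of these data known.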

Additional observations from a re-analysis of the deposited data

How the results depend on the processing

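No paired or blocked analysis was run. The 2 groups of each direct comparison share at most 1 replicate number. Numbers 92 and 93 occur in both LIP of day 0 and CTL of day 2, which were not compared directly but both enter the difference of the changes. Upper-quartile normalization put the median log2 change from day 0 to day 2 over all genes at -0.31 in CTL and -0.32 in LIP, and total counts alone at -0.21 and -0.36. All genes then split into 4259 higher and 6827 lower in CTL and 4293 and 7084 in LIP by upper quartile, and into 4621 and 6272 and 4138 and 7285 by total counts, against 5456 and 5220 and 5665 and 5446 by TMM. The members' medians were then 0.79 and 0.79 (upper quartile) and 0.88 and 0.75 (total counts), so that they stayed above all genes, with 1 member, Polr1a, called lower in CTL by upper quartile and 1, Polr1a again, in LIP by either. Members called higher numbered 29 and 26 (upper quartile) and 31 and 25 (total counts). On day 0, the LIP against CTL median became -0.019 and 0.040. Of the 35 members, upper quartile turned the sign of 2 in CTL, 3 in LIP, 1 on day 0, 1 on day 2 and 5 in the difference, and total counts that of 2, 4, 7, 3 and 13, where the median of the difference became -0.15, beside -0.17 over all genes. Among the genes with values by scaling, in CTL, Polr1a became -0.26 (upper quartile), -0.16 (total counts), -0.035 (at least 10 counts in every library) and -0.013 (without CTL 94 of day 0 and LIP 90 of day 2), and Wdr12 became -0.22 and -0.12 under the first pair. In LIP, Polr1a became -0.26, -0.30, -0.027 and -0.089 in the same order, Polr1b -0.035 (total counts), Bop1 -0.051, -0.085 and -0.098 (upper quartile, total counts, without both libraries) and Wdr12 -0.027 and -0.067 (upper quartile, total counts). The difference of changes for Myc became -0.037, -0.17, -0.025 and -0.14 in that order. DESeq2 called 1 member higher on day 2 and 1 in the difference, the fit of 12 libraries 2 on day 2, and no filter 1 in the difference. Without both libraries the difference had 2 members higher and 5 lower, with a median of -0.29, where 913 and 769 of all 15871 genes were called. In the shorter promoter window, TATAAA lay in 0 members. The causes of these moves were not tested.

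Leaving out each library in turn gave 31 to 33 members called in CTL (median 0.95 to 1.14) and 28 to 33 in LIP (0.93 to 1.21). It gave 0 to 1 lower on day 0 (median -0.043 to -0.016), 0 to 1 higher and 0 to 8 lower on day 2 (median -0.29 to 0.09), and 0 to 2 higher and 0 to 6 lower in the difference (median -0.28 without LIP 90 to 0.14 without LIP 96). In CTL, Polr1a ranged from -0.044 to 0.10 and Wdr12 from -0.033 to 0.21. In LIP, Polr1a ranged from -0.086 to 0.17 and Bop1 from -0.095 to 0.50. Myc ranged from -0.35 to -0.095 on day 0, from -0.47 to 0.0080 on day 2, and from -0.25 to 0.25 in the difference. LIP 90 decided the lower calls of day 2 and of the difference, and CTL 94 that of Myc on day 0. With 3 libraries a group, a p that misses the threshold does not show that the groups act alike.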
